A study of Mus musculus with 29 samples.

Results

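Of the 110715 regions of 201 bp in the ATAC-seq count table of this study of mouse retina, 1526 were open in rods, blue cones and green cones and closed in bipolar cells, and these photoreceptor-only regions are described here. A region was taken as open in a population when its midpoint lay inside a called peak in both replicates, and as closed when it lay in a peak of neither. The 1526 regions were therefore chosen by the peak calls of the same libraries whose counts are given below, so the difference between photoreceptors and bipolar cells in ATAC-seq is a description and carries no test. They did not overlap each other, lay nearest to the transcription start sites (TSSs) of 1325 genes, and formed a small part of the 25810 regions that were open in all 6 photoreceptor libraries.

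ATAC-seq measures how readily a transposase inserts into chromatin, and accessible stretches away from TSSs often act as enhancers. Photoreceptors turn light into an electrical signal in a specialised outer segment, and bipolar cells carry that signal to the inner retina. Both classes express the homeodomain factors CRX and OTX2, which carry a lysine at position 50 of the homeodomain (K50) and prefer TAATCC, whereas many other retinal homeodomain factors carry a glutamine there (Q50) and prefer TAATTA or TAATTG. Rods additionally use NRL and NR2E3, and without NRL the cells that would become rods take on the features of blue cones.

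The study sorted retinal cells from adult mice by fluorescence and profiled them by ATAC-seq with 2 replicates and by RNA-seq with 3 replicates per population. ON bipolar cells (ON-BC) and OFF bipolar cells (OFF-BC) came from Otx2-GFP+/-; Grm6-YFP+/+ mice, in which GFP sits in the Otx2 locus and the Grm6 promoter drives YFP, and the pan-bipolar population (pan-BC) from mice labelled Otx2-GFP+/-; Grm6-YFP+/+ for ATAC-seq and Otx2-GFP+/- for RNA-seq, although the study's own sample list gives Grm6-YFP-/- for the ATAC-seq pan-BC libraries. Rods came from Nrl-eGFP mice, green cones from Opn1mw-GFP mice, and blue cones from Nrl-eGFP;NrlKO mice, so the cells called blue cones here were photoreceptors of a knockout retina that stand in for native blue cones. OFF-BC and green cone replicates 3 and 4 were sorted 2 times, all other populations once. Bipolar mice were 42 to 48 days old and photoreceptor mice 56 days old. The photoreceptor libraries were re-analysed from earlier work, so cell class, age and the occasion of library making cannot be told apart. Bipolar libraries pooled retinas of more than 1 mouse, and the labels do not say whether replicates came from separate animals, so the p-values below measure only the spread between these samples. Same-numbered ON-BC and OFF-BC replicates came from the same mouse line at the same age in both assays, and no source used here says whether they shared mice or a sort.

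The labels were checked against marker genes in the RNA-seq, which had libraries of every population except green cones. Nr2e3, a nuclear receptor of rods, had normalized counts of 24669 to 39985 in rods and 48.9 to 78.9 in blue cones, and Opn1sw, the blue cone opsin, had 1108422 to 1302223 in blue cones and 7389 to 7590 in rods. Trpm1, the transduction channel of ON bipolar cells, ranged from 51663 to 59745 in ON-BC, 47907 to 52133 in pan-BC and 5394 to 7567 in OFF-BC. It ranged from 97.0 to 386 in the photoreceptor libraries. Grik1 ranged from 28558 to 50164 in OFF-BC and from 382 to 568 in ON-BC. Nrl, the gene targeted in the knockout, had 657, 764 and 486 in the 3 blue cone libraries against 11476, 16599 and 14469 in rods, and gene-level counts do not show which exons those reads covered. Opn1sw also read 28147 to 50740 in pan-BC and 55813 in OFF-BC replicate 3, against 447 to 822 in ON-BC. Whole-library depth, recovered from the count tables, was 4176776 to 12345845 ATAC-seq reads in regions and 12329548 to 26266746 RNA-seq reads in genes. The 4 cone markers summed to 39304 to 64131 in pan-BC, and 6 bipolar markers (Grm6, Trpm1, Pcp2, Cabp5, Tacr3 and Grik1) summed to 26026 to 30384 in blue cones, of which Cabp5 made up 25242 to 29460, against 461 to 972 in rods, and the part of such transcripts in the comparisons below was not tested. In bulk samples, fewer cells of a type and less RNA per cell cannot be told apart.

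The sequences of 6 photoreceptor-only regions are shown because they lie nearest to listed photoreceptor genes, or for Prkca a bipolar gene, and hold the K50 motif that was more frequent in these regions than in the table as a whole. They were the 6 with the highest lowest count in photoreceptors among regions of listed genes that held the motif, lay outside promoters and touched no exon, with 1 chromosome left out. Each is the forward strand of the reference (RefSeq GRCm38.p6, the build of the files), 5′ to 3′, in lower case, with each K50 match (TAATCC, or GGATTA when the motif lies on the other strand) in capitals.
Rbp3 chr14:33950199-33950399: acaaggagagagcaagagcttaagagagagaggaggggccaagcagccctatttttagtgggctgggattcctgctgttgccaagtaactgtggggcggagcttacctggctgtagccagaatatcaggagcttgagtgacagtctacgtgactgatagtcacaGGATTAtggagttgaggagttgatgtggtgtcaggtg
Mak chr13:41078043-41078243: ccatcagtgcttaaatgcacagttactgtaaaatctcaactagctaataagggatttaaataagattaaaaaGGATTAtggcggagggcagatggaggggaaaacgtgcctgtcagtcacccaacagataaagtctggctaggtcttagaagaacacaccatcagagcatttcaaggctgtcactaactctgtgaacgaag
Esrrb chr12:86456395-86456595: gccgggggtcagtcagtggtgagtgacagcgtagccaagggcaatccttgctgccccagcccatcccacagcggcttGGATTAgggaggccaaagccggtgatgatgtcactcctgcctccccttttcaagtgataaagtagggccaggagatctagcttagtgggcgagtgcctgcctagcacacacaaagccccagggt
Esrrb chr12:86516804-86517004: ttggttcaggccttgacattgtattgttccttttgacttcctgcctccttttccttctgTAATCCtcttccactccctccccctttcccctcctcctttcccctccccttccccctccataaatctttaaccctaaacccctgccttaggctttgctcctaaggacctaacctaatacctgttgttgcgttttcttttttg
Thrb chr14:17431873-17432073: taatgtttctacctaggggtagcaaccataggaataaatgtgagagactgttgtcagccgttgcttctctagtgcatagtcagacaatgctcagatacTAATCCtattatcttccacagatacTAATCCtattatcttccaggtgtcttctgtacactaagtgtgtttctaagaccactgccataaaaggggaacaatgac
Prkca chr11:108318167-108318367: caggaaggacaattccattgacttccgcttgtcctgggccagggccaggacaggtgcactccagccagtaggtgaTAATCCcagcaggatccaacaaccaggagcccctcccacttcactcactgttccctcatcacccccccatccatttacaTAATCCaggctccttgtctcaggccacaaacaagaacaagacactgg

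The Rbp3 region lay 3704 bp upstream of the TSS of Rbp3, which encodes the retinoid carrier of the space around outer segments, and was intergenic. The Mak region lay in an intron 1563 bp from the TSS of Mak, a kinase of the photoreceptor cilium. Esrrb, a nuclear receptor of rods, had both of its regions in introns, 34851 and 95260 bp from the TSS. The Thrb region was intergenic, 228987 bp upstream of the TSS of Thrb, the thyroid hormone receptor used by cones, and its 2 K50 matches fell inside 2 paired matches of TAAT and ATTA set 3 bases apart, so there the letters of both motifs overlap. The Prkca region lay in an intron 25621 bp from the TSS of Prkca, the protein kinase C of rod bipolar cells, and held 2 K50 matches.

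Counts in the photoreceptor-only regions were higher in rods than in cones and lowest in ON-BC. The ATAC-seq values are reads per region divided by a size factor per library, here called normalized counts. Over the 1526 regions the median was 73.2 and 77.3 in the 2 rod libraries, 50.5 and 52.0 in blue cones, with 56.1 and 54.9 in green cones. In bipolar cells the median was 8.00 and 7.41 in pan-BC, 5.97 and 5.86 in ON-BC, and 12.1 and 13.6 in OFF-BC. The photoreceptor libraries sat above the bipolar libraries in every one of these medians, and in 1432 regions (93.8%) all 6 photoreceptor libraries exceeded all 6 bipolar libraries, against 11.7% of all regions in the table. Rods had the highest mean of the photoreceptors in 954 of the regions (62.5%), against 32.7% of all regions, and OFF-BC the highest mean of the bipolar populations in 1115 (73.1%), against 36.1%. All regions include those without a rod peak and those with a bipolar peak, which the rule left out.

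**Figure D1:**
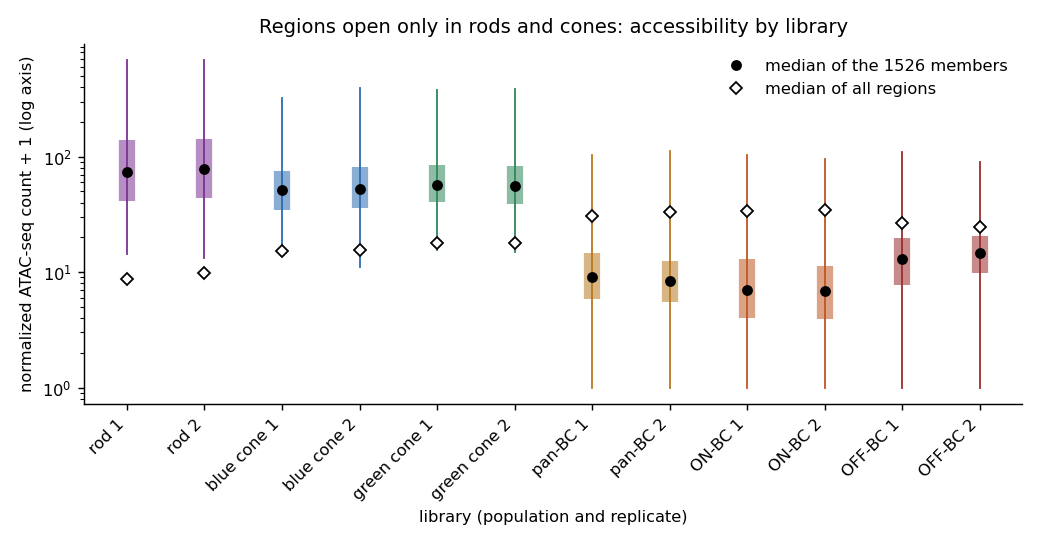
Normalized ATAC-seq counts plus 1 (log axis) of the 1526 photoreceptor-only regions in each of the 12 libraries; thick bars span the quartiles, thin lines the lowest to the highest region, filled points the median and open diamonds the median of all 110715 regions. The photoreceptor medians lie at 50.5 to 77.3 and the bipolar medians at 5.86 to 13.6 before 1 is added, and the bipolar medians fall below those of all regions.

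The edge of the rule was close for many regions. The weakest photoreceptor peak of any member had a −log10 q of 1.38, and in 335 members the weakest peak was under 5. A further 946 regions were open in all 6 photoreceptor libraries and failed by a peak in exactly 1 bipolar library, which was OFF-BC replicate 1 in 364, OFF-BC replicate 2 in 320, pan-BC replicate 2 in 185, pan-BC replicate 1 in 50, and an ON-BC library in 12 and 15. Their mean over photoreceptor libraries had a median of 69.4 and over bipolar libraries 13.9, against 63.1 and 8.81 for the members. Another 1340 regions had no bipolar peak and lacked 1 photoreceptor peak, most often that of green cone replicate 2 (609) or blue cone replicate 1 (487), with medians of 37.8 and 7.77. The libraries also differed in the number of peaks called, from 35974 to 48631 in the 6 photoreceptor libraries used and from 51911 to 88514 in the bipolar libraries.

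The 2 green cone libraries sorted a second time were not used to choose the regions and had peaks but no count column. Replicate 3 had a peak over 1049 photoreceptor-only regions (68.7%) and replicate 4 over 816 (53.5%), against 40% and 27.4% of all regions. All regions include those without a single-sort green cone peak, which the rule left out, so this contrast was partly set by the rule. Both double-sort libraries had a peak in 641 photoreceptor-only regions (42.0%) and neither in 302 (19.8%). By comparison, 93.1% and 89.9% of the 18233 regions open in all 6 populations had a peak in these libraries, as did 90.4% and 84.9% of 616 regions that were open in all photoreceptors and in OFF-BC and closed in ON-BC and pan-BC. Of the 8755 regions open only in bipolar cells, 6.24% and 0.685% had one. The members with a peak in both libraries had a median single-sort green cone count of 69.0, and those with a peak in neither 44.4, while their rod medians were 77.4 and 86.7. With peaks limited to a −log10 q of 5 or more, the shares fell to 54.9% and 40.3%.

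Photoreceptor-only regions were mostly distal. Promoters, taken to start 1000 bp before a TSS and to end 100 bp after it, held 89 of them (5.83%), against 14.9% of all regions, while introns held 908 (59.5%, against 46.3%) and intergenic sequence 547 (35.8%, against 45.8%). Promoter shares were also low in regions open only in bipolar cells (6.36%) and in photoreceptor regions also open in OFF-BC (4.87%). The nearest TSS was a median of 15382.5 bp away, against 20505 bp for all regions. Within 50 kb of a TSS lay 80.6% of the photoreceptor-only regions, against 69.7% of all regions and 52.2% of those open only in bipolar cells. The share was 92.7% for regions open in all 6 populations and 77.9% for photoreceptor regions also open in OFF-BC. Their median GC content was 48.8%, and 4.26% of them held 10 or more CpG dinucleotides, against 18.7% of all regions.

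K50 matches were more frequent in photoreceptor-only regions than in any set compared with them. At least 1 K50 match lay in 719 photoreceptor-only regions (47.1%), against 21.8% of all regions, 10.2% of those open in all 6 populations and 14.1% of those open only in bipolar cells, and 9.50% held 2 or more, against 3.16% of all regions. Regions shared with OFF-BC held one in 37.8%. The share was also above that of all regions within bands of GC content, at 55.5% against 32.3% where GC was 40 to 45%, 51.0% against 28.9% at 45 to 50%, and 44.2% against 21.5% at 50 to 55%. Matches gathered at the centre: within 50 bp on either side of it there were 4.38 and 4.46 K50 matches per kb, against 1.82 and 1.89 in all regions. The K50 share was 44.2% in the lowest and 50.5% in the highest of 4 groups of about equal size ordered by photoreceptor count, while the members with and without a match had close medians in rods (77.8 and 73.8), blue cones (52.2 and 51.6) and OFF-BC (12.5 and 13.3).

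Other motifs were less frequent or differed less from the rest of the table. All were searched on both strands. Q50 (TAATTA or TAATTG) was in 16.9% of the photoreceptor-only regions against 11.4% of all regions, and the paired TAAT and ATTA match, bound by homeodomain dimers, in 3.87% against 0.982%. AGGTCA, the single site of nuclear receptors such as ESRRB, was in 22.0% against 15.7%, and TGCTGA, part of the NRL site, in 17.6% against 17.9%. The E-box CAGATG, bound by basic helix-loop-helix factors, was in 15% of photoreceptor-only regions, 22.4% of all regions and 37.3% of bipolar-only regions, and any E-box (CANNTG) in 64.5%, 68.9% and 79.3%. The core of the CTCF motif (AGNNGGC with GG, GT, AT or AG at the open bases) was in 16.8%, 28.6% and 34.3%. The remaining motifs were at 8.98% against 17.0% of all regions (GGGCGG, bound by Sp factors), 5.18% against 4.88% (TGACTCA, AP-1) and 0.721% against 0.866% (CTAAAAATA, MEF2). GGGCGG was also in 8.98% of bipolar-only regions. Outside promoters it was in 7.72% of photoreceptor-only regions and 9.36% of all regions. A match is a run of letters and was not tested as a bound site.

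**Figure D2:**
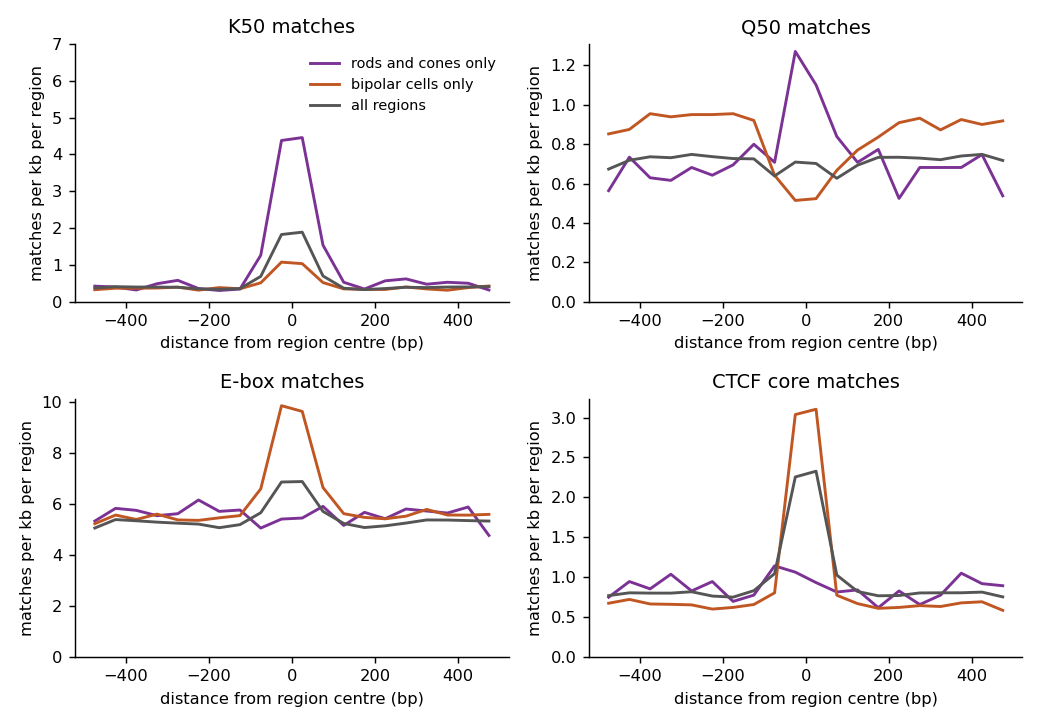
Motif matches per kb per region (vertical axes, which differ between panels) in 50 bp bins of distance from the region centre (horizontal axes, bp) for photoreceptor-only, bipolar-only and all regions. K50 reaches 4.46 per kb at the centre of photoreceptor-only regions against 1.89 in all regions, and the central rises of E-box and CTCF core matches in bipolar-only regions are not matched in photoreceptor-only regions.

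RNA-seq was not used to choose the regions and gives an independent measure of the genes beside them. Of the 1325 nearest genes, 1250 were found in the RNA-seq table, 62 of them under an older symbol, and 1011 passed the filter on low counts and were tested. A gene was called when its log2 fold change differed by more than 1 at an adjusted p under 0.05 (limma treat on log2 of the normalized count plus 1, Benjamini-Hochberg over all 14024 genes tested). In rods against pan-BC, 332 of the 1011 nearest genes (32.8%) were higher in rods, where 15.8% of all genes were, and 175 (17.3%) were lower, where 27.8% of all genes were. In blue cones against the same pan-BC libraries, 267 (26.4%) were higher, against 13.7% of all genes, and 139 (13.7%) were lower, against 22.7%. The median log2 fold change of the nearest genes was 0.56 in rods and 0.42 in blue cones, and that of all genes was −0.21 and −0.16.

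The share called higher in photoreceptors was larger close to the TSS and for genes with several regions. It was 37.5% in rods for genes with a region at the promoter and 38.6% for genes with the closest region outside the promoter but within 10 kb, against 29.9% at 10 to 50 kb and 24.2% beyond 50 kb. The blue cone shares over the same classes were 32.8%, 32.4%, 22.4% and 19.5%. Of the 23 tested genes with 3 or more photoreceptor-only regions, 47.8% were higher in rods, against 39.0% with 2 regions and 31.6% with 1. By comparison, the genes nearest to bipolar-only regions were higher in rods in 10.8% and lower in 48.2%, and those nearest to regions open in all 6 populations in 17.8% and 20.7%. The genes nearest to photoreceptor regions also open in OFF-BC were closer to those of the photoreceptor-only regions, higher in 27.5% in rods and 26.8% in blue cones and lower in 21.6% and 18.8%. Genes with and without a K50 match in their photoreceptor-only regions were higher in rods in 34.4% and 31.2%, and in blue cones in 26.5% and 26.3%. These shares are descriptions, and the differences between them were not tested.

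**Figure D3:**
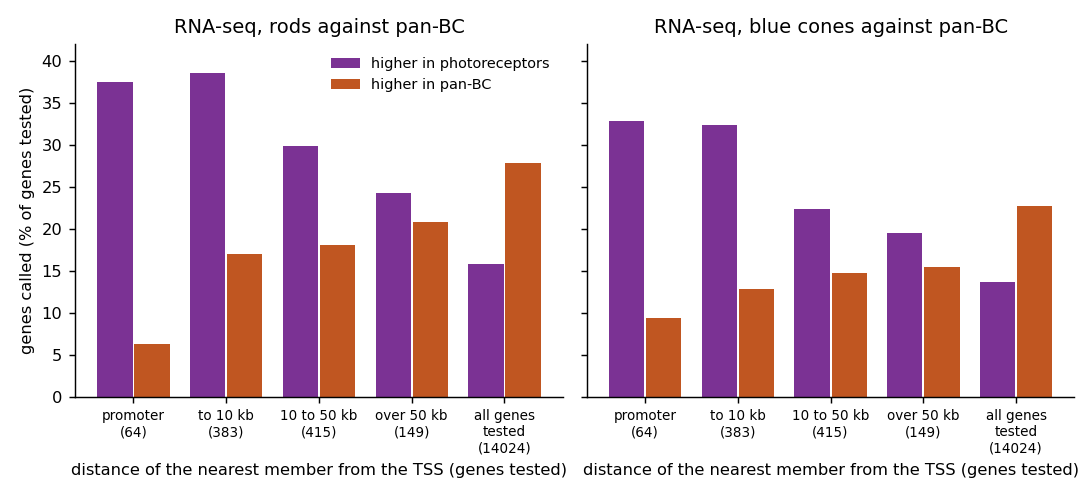
Share of nearest genes called higher in photoreceptors or in pan-BC (vertical axis, % of genes tested) by the distance class of the closest photoreceptor-only region, with all 14024 tested genes as the last pair of bars, for rods (left) and blue cones (right); both panels use the same pan-BC libraries. In rods the share called higher is 37.5% at promoters and 24.2% beyond 50 kb, against 15.8% of all genes.

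Phototransduction is the cascade that converts photon capture to a change in membrane current. Most of its listed genes were higher than in pan-BC in rods, in blue cones or in both, with or without a photoreceptor-only region. All those nearest to such a region were. Because the genes were listed for their role in photoreceptors, these calls do not measure an effect of having a region. In the rod list, 11 of 11 tested genes were higher in rods than pan-BC and 8 of 11 higher in rods than blue cones; 2 had a member. Gnat1, the rod transducin α subunit, had normalized counts of 419655, 588373 and 488129 in rods, 1233, 1109 and 785 in blue cones, with 5177, 4566 and 5496 in pan-BC. The 3 groups did not overlap, and Gnat1 was higher in rods than pan-BC (log2 fold change 6.61, SE 0.20, adjusted p = 2.32e-13) and lower in blue cones than pan-BC (−2.30, SE 0.20, adjusted p = 2.27e-05). Its region, in an intron 3831 bp from the TSS at chr9:107675703-107675903, was open in both: 227 and 266 in rods, against 72.5 and 70.8 in blue cones, 112 and 90.1 in green cones, and 4.80 to 14.8 in bipolar libraries. Gnat1 RNA read 443, 268 and 414 in OFF-BC, below every blue cone library. The direction in blue cones thus depended on the bipolar population set against them. Pde6a, a catalytic subunit of the rod phosphodiesterase, had 2 regions and was higher in rods than pan-BC by 7.79 (SE 0.33, adjusted p = 7.40e-12) and in blue cones by 4.70 (SE 0.33, adjusted p = 3.69e-08).

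In the cone list, 10 of 11 tested genes were higher in blue cones than pan-BC and none in rods, where 5 were lower, and only Gnat2, the cone transducin α subunit, had a member. Gnat2 read 143488, 161909 and 184502 in blue cones, 878, 967 and 966 in rods, and 10027, 8547 and 8861 in pan-BC. Blue cones were highest and rods lowest without overlap, with a log2 fold change against pan-BC of 4.15 in blue cones (SE 0.15, adjusted p = 2.73e-11) and −3.28 in rods (SE 0.15, adjusted p = 4.68e-10). The Gnat2 region was at the promoter, 23 bp upstream of the TSS at chr3:108092943-108093143, and read 51.4 and 58.3 in rods, against 69.9 and 99.0 in blue cones, 63.8 and 94.4 in green cones, and 10.4 to 16.2 in bipolar libraries. Rod and blue cone ATAC-seq counts at Gnat2 differed by −0.60 log2 without passing the test (SE 0.38, adjusted p = 1.00), while its RNA differed by −7.44 log2 (SE 0.15, adjusted p = 3.07e-15).

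Of the phototransduction genes that both classes of photoreceptor use, 13 of 14 were higher in rods and 12 of 14 in blue cones than in pan-BC, and 6 had a member. These 6 were Rcvrn (recoverin), Guca1a (a guanylate cyclase activator), Gucy2e (a guanylate cyclase), Rgs9 (the regulator that shuts off transducin), Unc119 (a lipid-binding chaperone of transducin) and Aipl1 (a chaperone of the phosphodiesterase). All 6 were higher in both photoreceptors, from 2.29 (Unc119) to 5.58 (Rgs9) log2 in rods and from 2.15 (Unc119) to 6.26 (Aipl1) in blue cones, and none was called between rods and blue cones. Rcvrn read 40633, 72292 and 56531 in rods, 18727, 22260 and 24721 in blue cones, with 2538, 1693 and 2311 in pan-BC. Every rod library was above every blue cone library, and every blue cone library above every pan-BC library, though rods and blue cones did not differ by the test (1.34 log2, SE 0.41, adjusted p = 0.813). The Unc119 region, at the promoter 99 bp upstream of the TSS, was among the strongest of all, with 681 and 682 in rods, against 205 and 206 in blue cones, 287 and 215 in green cones and 17.9 to 45.8 in bipolar libraries.

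Most genes of the outer segment and visual cycle were also higher in photoreceptors than in pan-BC. Of 20 tested, 19 were higher in rods and 18 in blue cones than in pan-BC. The 6 with a photoreceptor-only region were Rbp3, Mak, Prom1 (an outer segment disc protein), Rp1l1 (an axoneme protein), Rdh12 (a retinol dehydrogenase) and Prcd (a disc protein, listed in the RNA-seq table as Gm11744), and all were higher in both. Rbp3 read 47427, 62611 and 60077 in rods, 181503, 182357 and 194514 in blue cones, with 5593, 4896 and 6038 in pan-BC. It was higher in blue cones than rods (rod minus blue cone −1.72 log2, SE 0.16, adjusted p = 0.00196), whereas its region, printed above, read 649 and 683 in rods, against 275 and 286 in blue cones, 350 and 300 in green cones and 8.96 to 40.9 in bipolar libraries. Rod ATAC-seq counts there were the higher ones in every library without passing the test (1.25 log2, SE 0.26, adjusted p = 0.653). Rdh12 was higher in rods than blue cones in RNA (2.37 log2, SE 0.16, adjusted p = 1.63e-06) and at its intronic region 1645 bp from the TSS, which read 297 and 275 in rods, 57.0 and 46.3 in blue cones (2.45 log2, SE 0.34, adjusted p = 0.00419), and 114 and 81.7 in green cones. Mak read 13339, 14657 and 13764 in rods, 13368, 11570 and 10612 in blue cones, with 298 to 540 in pan-BC.

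Of 19 tested photoreceptor transcription factors, 14 were higher in rods and 12 in blue cones than in pan-BC, and 3 were lower in each. Those with a photoreceptor-only region were Rax (a retinal homeodomain factor), Thrb, Esrrb and Prdm1 (also called Blimp1, a repressor of bipolar genes during development), and all 4 were higher in both. Prdm1 read 739, 750 and 816 in rods, 2090, 1876 and 2019 in blue cones, with 23.4, 7.06 and 39.2 in pan-BC, so no groups overlapped. Its log2 fold change was 5.27 in rods (SE 0.62, adjusted p = 7.30e-06) and 6.65 in blue cones (SE 0.62, adjusted p = 4.48e-07), and 3 of the 26 regions nearest to it were photoreceptor-only. Esrrb read 4619, 5543 and 4431 in rods, 283, 329 and 225 in blue cones, with 28.3 to 63.6 in pan-BC, and was higher in rods than blue cones by 4.13 log2 (SE 0.29, adjusted p = 1.35e-07). Its region at 34851 bp read 256 and 297 in rods, 68.6 and 68.7 in blue cones, with 102 and 97.2 in green cones, a rod minus blue cone difference of 1.99 log2 that did not pass the test (SE 0.38, adjusted p = 0.0791). Thrb read 6276, 5790 and 6526 in rods and 11923, 10299 and 9546 in blue cones, against 349 to 403 in pan-BC. Both of its regions were far from the TSS, and the one printed above read 209 and 198 in rods, 66.1 and 82.4 in blue cones, with 83.8 and 53.5 in green cones.

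Bipolar genes went the other way in RNA against pan-BC. Of 26 tested, 23 were lower in rods and 22 in blue cones than in pan-BC, and 1 was higher in each. Prkca, Prdm8 (a bipolar transcriptional repressor) and Scgn (secretagogin, a calcium sensor of cone bipolar cells) each had a photoreceptor-only region. Prkca RNA read 5417, 5910 and 5069 in pan-BC, 978, 1085 and 997 in rods, and 194, 181 and 114 in blue cones, without overlap. It was lower in rods (−2.42 log2, SE 0.48, adjusted p = 0.0115) and in blue cones (−5.09, SE 0.48, adjusted p = 9.62e-07), yet its printed region read 140 and 147 in rods, against 36.3 and 52.0 in blue cones, 46.1 and 35.2 in green cones, and 5.84 to 26.4 in bipolar libraries. A second Prkca region, in an intron 107499 bp from the TSS, read 179 and 180 in rods, 67.6 to 92.5 in cones and 3.89 to 17.6 in bipolar libraries. Scgn was lower in rods (−8.48 log2, SE 0.24, adjusted p = 4.76e-14) and in blue cones (−6.14, SE 0.24, adjusted p = 1.48e-11). Its 2 regions lay far from the TSS, 83353 and 136950 bp upstream. Their weakest photoreceptor peaks had a −log10 q of 4.14 and 2.86. Prdm8 was lower in blue cones (−1.62, SE 0.19, adjusted p = 0.00903) and did not pass the test in rods (−1.32, SE 0.19, adjusted p = 0.121). In OFF-BC, however, Prkca read 105, 66.1 and 533, below every rod library. Prdm8 read 120, 84.1 and 172 in OFF-BC, below every rod and blue cone library. The direction for Prkca in rods, and for Prdm8 in both, thus depended on the bipolar population. Scgn read 96679 to 107686 in OFF-BC, above every photoreceptor library.

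**Figure D4:**
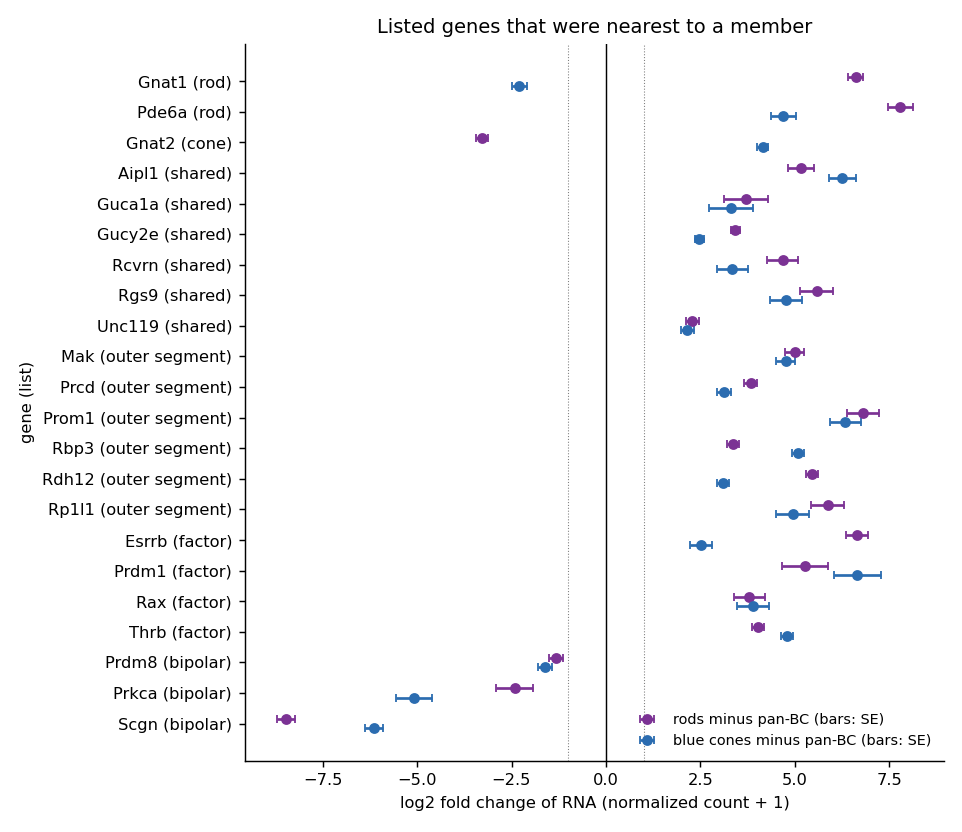
Log2 fold change of RNA against pan-BC (horizontal axis, on normalized count plus 1; bars are SE; dotted lines mark −1 and 1) for the 22 listed genes nearest to a photoreceptor-only region, in rods and in blue cones, which share the pan-BC libraries. Gnat1 lies at 6.61 in rods and −2.30 in blue cones, Gnat2 at −3.28 and 4.15, and the 3 bipolar genes lie below 0 in both.

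Outside the lists, the nearest genes called higher in rods with the largest fitted changes were Ppara (a fatty acid receptor), 6430562O15Rik, Gulp1 (an engulfment adaptor), Gramd2 and Kpna2 (an importin α). Ppara read 1599, 1341 and 1431 in rods, 516, 290 and 250 in blue cones, with 0, 0 and 1.22 in pan-BC (10.12 log2 in rods, SE 0.51, adjusted p = 4.18e-11), and 2 of the 4 regions nearest to it were photoreceptor-only. Kpna2 read 2464, 2542 and 2315 in rods, 642, 827 and 989 in blue cones, with 8.57 to 10.6 in pan-BC (7.83 log2 in rods against pan-BC, SE 0.19, adjusted p = 1.67e-14), and 3 of its 8 regions were photoreceptor-only. Kpna2 was however at 93.1 to 144 in ON-BC and 90.1 to 103 in OFF-BC, above every pan-BC library, so its fold change depends on the bipolar population set against rods. In blue cones the largest were in Tmem26, Fcamr, Ppara, Gulp1 and Akr1b8. Fcamr was at 0 in all 3 pan-BC libraries and averaged 308 in blue cones, at least 93.4-fold higher, and 28.0 in rods, at least 8.5-fold higher, taking 3 reads per library as the floor.

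The nearest genes with the largest falls in rods were Mdga1 (an adhesion protein), Scgn, Arhgap23, Tent5b (listed as Fam46b) and Bmerb1 (listed as 2900011O08Rik), and in blue cones Neurod2 (a neuronal factor), Tent5b, Arhgap23, Smtn and Cdon. Tent5b was at 0 in every rod and blue cone library and averaged 227 in pan-BC, so it was at least 73.8-fold lower in rods and 101-fold lower in blue cones. Mdga1 read 1516, 1532 and 1643 in pan-BC, 68.4, 61.5 and 71.1 in blue cones, and 0.970, 0 and 7.57 in rods (−9.25 log2 in rods, SE 0.49, adjusted p = 9.60e-11). Cdon, a hedgehog co-receptor, read 389, 368 and 399 in pan-BC and 6.77, 1.52 and 3.70 in blue cones (−6.42 log2, SE 0.31, adjusted p = 1.57e-10) but 229, 158 and 227 in rods, which did not pass the test (−0.93, SE 0.31, adjusted p = 0.986). A photoreceptor-only region was thus nearest to some of the genes with the least photoreceptor RNA.

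Between rods and blue cones, 101 of the 1011 nearest genes (9.99%) were higher in rods, where 4.63% of all genes were, and 115 (11.4%) were higher in blue cones, where 11.3% of all genes were. The median log2 fold change was 0.14. In 7 nearest genes, among them Gnat1 and Gnat2, one photoreceptor was higher and the other lower than pan-BC, with a called difference between them. The part of photoreceptor transcripts in the pan-BC libraries in these calls was not tested.

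The genes with the most photoreceptor-only regions were Pde8b and Trak1 with 5 each, of the 24 and 28 regions nearest to them. Cdh4, Ntm and Sipa1l2 followed with 4 each, of 31, 133 and 27. With 3 each were 4930505M18Rik, Amer2, Arhgap32, Atp2c1 and Cep164, named first in alphabetical order, of 46, 19, 39, 15 and 32. The counts thus depended in part on how many regions a gene had. Pde8b, a cAMP phosphodiesterase, read 4864, 7328 and 6991 in rods, 8736, 6661 and 5399 in blue cones, with 444 to 509 in pan-BC, and was higher in both (3.75 log2, SE 0.16, adjusted p = 1.01e-10 in rods; 3.86, SE 0.16, adjusted p = 1.71e-10 in blue cones). Trak1, a kinesin adaptor of mitochondria, read 535 to 564 in rods, 1004 to 1052 in blue cones, with 903 to 1003 in pan-BC and was not called. Cep164, a protein of the basal body, was higher in rods (3746, 3786 and 3938 against 307 to 318 in pan-BC, 3.60 log2, SE 0.17, adjusted p = 2.67e-10) and also higher in rods than blue cones (3.0, SE 0.17, adjusted p = 3.07e-08). Atp2c1, a Golgi calcium pump, was higher in rods (2.03, SE 0.11, adjusted p = 2.37e-07), and Sipa1l2 in both. Arhgap32 was lower in blue cones (−1.53, SE 0.16, adjusted p = 0.00825), a call that was lost without blue cone replicate 2, and Cdh4, Ntm and Amer2 were not called against pan-BC.

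The 10 regions with the highest lowest count in photoreceptors lay nearest to Rbp3, Klhl36, Zbtb18, Hmgn1, E2f3, Unc119, H2az1, C2cd2l, Rax and Pard6b. All 10 read at least 183 in every photoreceptor library, and the bipolar counts ranged from 2.93 at the Rax promoter to 111 at H2az1, a histone variant gene. At Zbtb18, which encodes a transcriptional repressor, the promoter region read 540 and 581 in rods, against 234 and 257 in blue cones, 374 and 387 in green cones and 42.5 to 109 in bipolar libraries. This region was closed by peak calls in bipolar cells and still carried more reads in each bipolar library than the median region of the table.

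Within the photoreceptors, more photoreceptor-only regions were higher in rods than in cones. The rule asked for a peak in every photoreceptor population, which limits how far they can differ. It left out regions without a peak in both rod libraries, and all regions include these. The contrast with all regions below was therefore partly set by the rule. All 1526 regions passed the filter on low counts. Of these, 48 (3.15%) were higher in rods than blue cones, where 1.46% of all 108448 tested regions were, and 3 (0.197%) were higher in blue cones, where 8.56% of all regions were, and the median difference was 0.58 log2 against −0.20 in all regions. Between rods and green cones, 8 regions (0.524%) were higher in rods, where 0.278% of all regions were, and 1 (0.0655%) in green cones, where 10.9% of all regions were, with a median of 0.47 against −0.44. These 2 comparisons share the rod libraries. Regions open in all 6 populations also had medians above 0, at 0.43 against blue cones and 0.49 against green cones, so a shift toward rods was not particular to photoreceptor-only regions, and 1.20% and 0.302% of them were called higher in rods. Between blue and green cones, limma treat called 0 regions in either direction, where 0.0277% and 0.0627% of all regions were called, 9 regions had an unadjusted p under 0.05, edgeR on recovered reads called 4 higher in blue cones and 2 in green cones, and the median was −0.13.

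The number of calls between photoreceptors depended on the tool, the scaling and the libraries. edgeR called 176 and 32 regions between rods and blue cones and 131 and 25 between rods and green cones, and DESeq2 called 84 and 5, and 19 and 4. Scaling by library total, which moved the median of all regions to −0.46 and −0.73, gave 24 higher and 11 lower against blue cones, and 1 higher and 8 lower against green cones. Without rod replicate 1 or rod replicate 2, 16 regions were higher in rods than blue cones, and 0 were called against green cones by limma. Without blue cone replicate 1 or 2, 21 and 23 were higher in rods than blue cones and 5 higher than green cones. Without ON-BC replicate 1 or 2, which enter only through the shared spread, 73 and 76 were higher in rods than blue cones (8 lower in each case), and 15 and 13 higher than green cones (6 and 5 lower). Without green cone replicate 1 or 2, 5 and 0 were higher than green cones, and without OFF-BC replicate 1 or 2, 13 were, while 2 were lower without pan-BC replicate 2.

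The regions with the largest rod excess over blue cones lay nearest to Jarid2 (a subunit of a Polycomb complex), Nadk (NAD kinase), Prkab1 (a subunit of the energy sensor AMPK), Trib2 (a pseudokinase) and Myh7 (a cardiac myosin). The Jarid2 region, intergenic and 30240 bp upstream of the TSS at chr13:44700434-44700634, read 386 and 407 in rods, 28.5 and 29.6 in blue cones, with 145 and 92.9 in green cones. Green cones lay between the other two, and the rod minus blue cone difference was 3.72 log2 (SE 0.45, adjusted p = 2.22e-04). Nadk read 435 and 459 in rods, 28.5 and 44.1 in blue cones, with 133 and 97.2 in green cones (3.62 log2, SE 0.36, adjusted p = 3.79e-05). Rcvrn, the one shared phototransduction gene with a call here, had a UTR region that read 407 and 379 in rods, 46.6 and 54.9 in blue cones (2.93 log2, SE 0.33, adjusted p = 3.03e-04), and 112 and 88.7 in green cones (rod minus green cone 1.97, SE 0.33, adjusted p = 0.0414).

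The 3 regions higher in blue cones lay nearest to Prdx6 (a peroxiredoxin), Aqp6 (an aquaporin) and D330037F02Rik. Prdx6 read 163 and 183 in blue cones, 19.5 and 23.0 in rods and 63.8 and 42.2 in green cones (−2.97 log2, SE 0.41, adjusted p = 0.00165). Aqp6 read 128 and 108 in blue cones but 14.6 and 23.9 in green cones, close to rods at 21.0 and 13.6. The 5 regions with the largest rod excess over green cones lay nearest to Runx1, Sorbs2os, Adgrv1, Tmem266 and Egln1, each losing its call under 3 to 12 alternatives, and the 1 region higher in green cones to 4833415N18Rik, with 121 and 211 in green cones, 20.2 and 29.8 in rods and 49.2 and 52.0 in blue cones (−2.66 log2, SE 0.54, adjusted p = 0.0331).

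**Figure D5:**
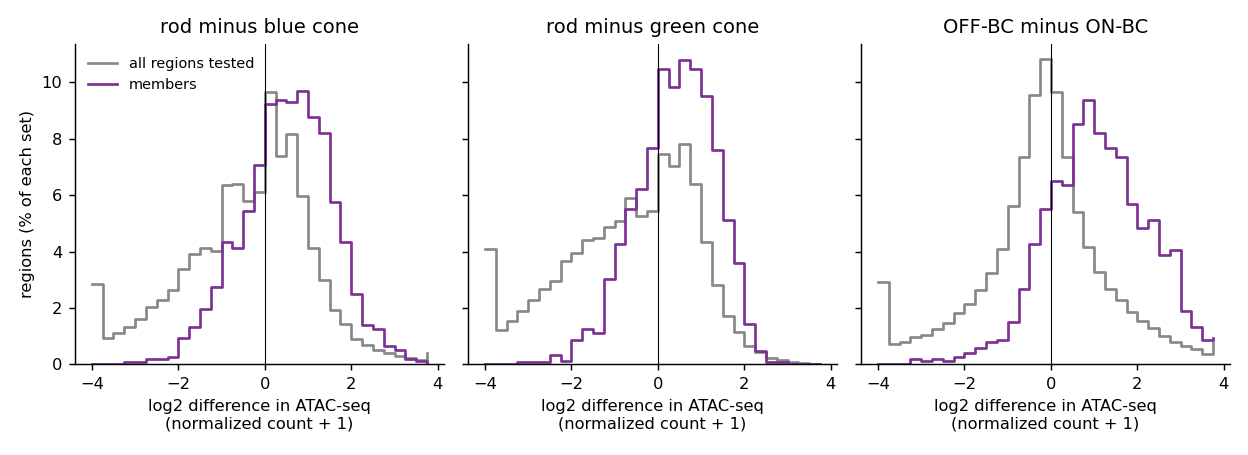
Distribution of log2 differences in ATAC-seq (horizontal axis, normalized count plus 1; the outermost bins hold all values beyond 4 in size) as a share of each set (vertical axis), for the 1526 photoreceptor-only regions and all 108448 tested regions. The medians of the photoreceptor-only regions are 0.58, 0.47 and 1.06 from left to right. Those of all regions lie to the left, at −0.20, −0.44 and −0.15, and include regions that the rule left out by their peaks. Regions open in all 6 populations, not drawn, had 0.43, 0.49 and −0.09.

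Although closed by peak calls in both, photoreceptor-only regions had more reads in OFF-BC than in ON-BC. That neither population may hold a peak limits the levels this comparison can take. All regions include those with a peak in ON-BC or OFF-BC, so the contrast with them was partly set by the rule. Fewer peaks were called in OFF-BC (57801 and 51911) than in ON-BC (63406 and 66583), and the part of this in the difference was not tested. The median OFF-BC minus ON-BC difference was 1.06 log2 (1.00 with regions at 0 in a population set to their bound), against −0.15 in all regions, and the 4 pairings of an OFF-BC with an ON-BC library gave medians from 0.79 to 1.16. In 840 regions (55%) both OFF-BC libraries exceeded both ON-BC libraries, against 23.3% of all regions. The test called 149 regions (9.76%) higher in OFF-BC, where 2.80% of all regions were, and 4 (0.262%) higher in ON-BC, where 4.58% of all regions were. edgeR called 245 higher in OFF-BC, DESeq2 called 14, a fit with the replicate number as a block called 151 (and 5 higher in ON-BC), and leaving out OFF-BC replicate 1 or 2 left 55 or 66. The 4 higher in ON-BC became 15 without OFF-BC replicate 2, 1 without ON-BC replicate 1, and 2 without any 1 of the photoreceptor libraries. Scaling by TMM or by library total moved the median of all regions from −0.15 to 0.07 and 0.14 and that of the photoreceptor-only regions to 1.24 and 1.33.

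Over 4 groups of the regions of about equal size by photoreceptor count, from lowest to highest, the median OFF-BC minus ON-BC difference was 1.22, 1.13, 1.09 and 0.90 log2. The median OFF-BC count rose from 10.9 to 17.5 over the same groups, that of ON-BC from 4.42 to 8.90, and that of pan-BC from 6.05 to 11.7. In 65 regions both ON-BC libraries were at 0, and 46 of the 149 calls were among these. The region with the largest fitted difference lay 4033 bp upstream of the TSS of Gsg1l, which encodes an auxiliary subunit of AMPA receptors, and read 21.6 and 35.0 in OFF-BC, 0 and 0 in ON-BC and 12 and 11.4 in pan-BC, at least 6.38-fold higher in OFF-BC than ON-BC, with 51.8 to 125 in photoreceptors. Regions nearest to Pef1, Klf12, Plxna2 and Tbc1d22a followed, at least 3.88- to 4.59-fold higher. The 4 regions higher in ON-BC lay nearest to Spint2, Pde8b, Zfp334 and Ice2, each losing its call under 2 to 17 alternatives, and of these Spint2 read 20.9 and 14.6 in ON-BC and 0 and 3.89 in OFF-BC (−3.06 log2, SE 0.57, adjusted p = 0.0194).

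Transcripts of photoreceptors differed between the bipolar populations, with cone markers higher in OFF-BC than in ON-BC and rod markers lower. Summed normalized counts of the 4 cone markers (Opn1sw, Opn1mw, Arr3 and Gnat2), none of them at 0, ranged from 20040 to 85288 in OFF-BC, 3967 to 4538 in ON-BC and 39304 to 64131 in pan-BC. In OFF-BC replicates 1, 2 and 3, Gnat2 read 16557, 13813 and 21002, and Opn1sw 4477, 4314 and 55813. Those of 3 rod markers (Gnat1, Nrl and Nr2e3), again with none at 0, ranged from 309 to 467 in OFF-BC, 3863 to 5554 in ON-BC and 4927 to 5857 in pan-BC. These RNA libraries are not the ATAC-seq libraries, and the part of photoreceptor cells in the OFF-BC counts was not tested. The OFF-BC libraries were also the only bipolar ones sorted 2 times, so sort and population cannot be told apart.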

How the data were processed

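Per the labels and the study's methods, the authors aligned ATAC-seq reads with Bowtie2 to GRCm38 (version 2.2.5 in the submitters' processing notes, while the study's methods name another), called peaks per library with MACS2 2.1.1, and counted reads in 201 bp regions; RNA-seq reads were aligned with STAR 2.7.0d. The deposited count tables hold normalized signal, counts divided by size factors, for 12 ATAC-seq and 15 RNA-seq libraries. The deposited peak files hold MACS2 scores, fold enrichment, −log10 p and −log10 q values per peak. The files held no columns of the authors' own comparisons, and 0 columns of per-sample values were left unmapped. Divided by 1 step per library, 100% of the values above 0 in both tables lay within 0.01 of a whole read. In RNA-seq pan-BC replicate 2 the step was close to 1 (1.0088), so that library's reads are less certain.

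Populations were taken from the labels. Regions were assigned to the nearest TSS of RefSeq GRCm38.p6. The main test was limma 3.58.1 (treat with trend, against a log2 fold change of 1) on log2 of the normalized count plus 1, after edgeR's filter on low counts, with Benjamini-Hochberg adjustment over all features at 0.05, and 1 model per assay over all libraries. edgeR 4.0.16 and DESeq2 1.42.0 on recovered reads, other pseudocounts (0.5 and 4), TMM and library total scaling, no filter, a replicate block and leaving out each library were alternatives. The scripts were tested on simulated data. Same-numbered replicates did not all deviate together (correlations from −0.159 to 0.222, the highest for ON-BC and OFF-BC replicate 2 in RNA-seq), so the numbers were not treated as pairs. Depths were 4176776 to 12345845 (ATAC-seq) and 12329548 to 26266746 (RNA-seq) reads, and floors of 3 reads cover counting error only.

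The regions, gene lists and tests were chosen with earlier results of these data known. Named genes were the listed genes nearest to a region, the 10 regions with the highest lowest photoreceptor count, the 10 genes with the most regions, the 5 called highest and lowest in RNA against pan-BC, and the 5 regions called highest and lowest in each ATAC-seq comparison. Rcvrn and Rdh12 regions are named from the lists. Some marker genes are not reported here, and marker sums leave them out.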

Additional observations from a re-analysis of the deposited data

Results flagged for a closer look

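Gnat1, the rod transducin α subunit, and Gnat2, its cone counterpart, were picked out because their RNA moved in opposite directions against pan-BC in the 2 photoreceptor types, with a tested difference between the types. The rod minus blue cone log2 fold change was 8.91 (SE 0.20, adjusted p = 6.90e-15 by limma treat, higher in 3 of 3 rod libraries) for Gnat1 and −7.44 (SE 0.15, adjusted p = 3.07e-15, lower in 3 of 3 rod libraries) for Gnat2. Each gene had 1 photoreceptor-only region, which was open by peak calls in rods, blue cones and green cones. Both genes were also among the markers used to check the labels. Pan-BC averaged 5080 for Gnat1, against 498719 in rods, and 9145 for Gnat2, against 163300 in blue cones. For Gnat1, OFF-BC averaged 375, below the 1042 of blue cones, so the fall in blue cones was against pan-BC and not OFF-BC. The study's methods filtered out genes far higher in 1 photoreceptor type than in the other and in pan-BC, as potential contamination. The part of photoreceptor transcripts in these pan-BC counts was not tested.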

How the results depend on the processing

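With the double-sort green cones in place of the single-sort ones, the rule gave 694 regions, and leaving out 1 library gave 1538 to 2135. The share with a double-sort peak was 54.9% and 40.3% at a −log10 q of 5 or more. The RNA-seq counts stayed within 1.5 times under every alternative. Leaving out 1 library gave 316 to 334 nearest genes higher in rods than pan-BC and 167 to 178 lower, 255 to 270 and 127 to 140 for blue cones, and 91 to 110 and 105 to 117 for rods against blue cones. Library total scaling moved the medians of all genes to −0.55 (rods) and −0.44 (blue cones) and those of the nearest genes to 0.21 and 0.14, with 264 higher and 207 lower in rods and 226 and 169 in blue cones.

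Counts of ATAC-seq calls were less stable, with 2 libraries per population. Rods against blue cones gave 76 higher and 6 lower with a pseudocount of 4, 24 and 11 with library total scaling, 176 and 32 with edgeR, 84 and 5 with DESeq2, and 16 to 76 and 2 to 8 when 1 library was left out. Rods against green cones gave 14 and 6, 1 and 8, 131 and 25, 19 and 4, and 0 to 15 and 0 to 6 in the same order. Blue against green cones gave 4 and 2 with edgeR, and 0 and 0 when any 1 library was left out. OFF-BC against ON-BC gave 41 and 0 with a pseudocount of 4, 2 higher in ON-BC with TMM, 245 higher in OFF-BC with edgeR, 14 and 0 with DESeq2, and 55 to 206 and 1 to 15 when 1 library was left out. The cause of these shifts was not tested.

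With the replicate number as a block, 5 regions were higher in blue cones than rods and 2 higher in green cones than rods, in place of 3 and 1, and the other counts stayed within 1.5 times. For named genes and regions, 3691 values under alternatives kept their direction and side of the threshold, 86 lost a call, 6 gained one and 0 changed sign. Of the lost calls, 77 were at ATAC-seq regions: those nearest to Aqp6, Prkab1 and Trib2 between rods and blue cones (3, 3 and 1), Runx1, Tmem266, Egln1, Adgrv1, 4833415N18Rik and Sorbs2os between rods and green cones (12, 7, 5, 4, 4 and 3), and Zfp334, Ice2, Spint2 and Pde8b between OFF-BC and ON-BC (17, 12, 4 and 2). The 9 lost in RNA-seq were those of Akr1b8 in rods, Arhgap32 in blue cones, and Prkca and Kpna2 between rods and blue cones, each only when 1 library was left out.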
